A study of Mus musculus with 4 samples.

Results

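The interleukin-1 family was followed here through 9 genes that encode ligands, receptors and inhibitors, out of 32285 genes measured in cells of the mouse fracture callus. They were taken by gene symbol: the ligands Il1a, Il1b, Il18 and Il33, the receptor antagonist Il1rn, the signalling receptors Il1r1 and Il1rl1, the shared receptor subunit Il1rap and the decoy receptor Il1r2. All 9 were detected. Right tibia fractures were made in wild-type C57BL/6J mice, which the study's methods describe as male, at 3 months of age. RA fractures came from mice given K/BxN serum, which carries arthritogenic antibodies and produces an arthritis resembling rheumatoid arthritis, whereas control mice received Vehicle (PBS in the methods). Callus was collected 4 or 7 days post fracture (dpf), which gave 4 single-cell RNA-seq libraries named control_4d, control_7d, RA_4d and RA_7d. Per the labels, each library pooled calluses of 4 animals and was loaded with 10000 cells, whereas the study's methods give another number of animals.

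Interleukin-1 alpha and beta signal through the receptor encoded by Il1r1 together with the accessory protein encoded by Il1rap, while the product of Il1rn occupies the receptor without signalling and the product of Il1r2 binds ligand without a signalling tail. Interleukin-33 is a nuclear alarmin released from damaged stromal cells, and its receptor ST2, encoded by Il1rl1, also needs the accessory protein. Interleukin-1 beta and interleukin-18 are made as precursors that inflammasome caspases cleave, so that their mRNA is a measure of supply and not of active cytokine. In bone, interleukin-1 is known for driving osteoclast formation and cartilage breakdown.

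The genes form clusters in the genome. In the GENCODE M21 annotation of GRCm38, Il1r2 (chr1:40074079-40125231), Il1r1 (chr1:40225080-40317257) and Il1rl1 (chr1:40429570-40465415) follow each other on the plus strand of chromosome 1. Il1a (chr2:129299610-129309972) and Il1b (chr2:129364570-129371139) lie side by side on the minus strand of chromosome 2, and Il1rn (chr2:24336853-24351494, plus strand) is on the same chromosome. Il1rap (chr16:26581704-26730117), Il33 (chr19:29925114-29960718) and Il18 (chr9:50554827-50581840) stand apart on the plus strands of other chromosomes. RefSeq promoter windows of 300 bases (GRCm38.p6, from 250 bases before to 50 after a transcription start) were at hand for all 9 genes, with 2 windows each for Il1r1, Il33 and Il1rl1 and 3 for Il1rn.

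A few windows are printed because they belong to the ligand with the highest level in callus myeloid cells and to the receptor whose cell types span mesenchyme and mast cells or basophils. The starts of the Il1rl1 windows are 10059 bases apart, and the distal promoter is known for use in mast cells and other blood cells whereas the proximal promoter is known for use in fibroblasts. Capitals mark letter matches on either strand to GATAAG (the motif of GATA factors), TATAAA (the core promoter box), TGANTCA (AP-1), TTNNGNAAT (C/EBP), GGANTTTCC (NF-kB) or GAGGAA (PU.1), where N is any base.
Il1rl1 distal, chr1:40429320-40429619, plus strand: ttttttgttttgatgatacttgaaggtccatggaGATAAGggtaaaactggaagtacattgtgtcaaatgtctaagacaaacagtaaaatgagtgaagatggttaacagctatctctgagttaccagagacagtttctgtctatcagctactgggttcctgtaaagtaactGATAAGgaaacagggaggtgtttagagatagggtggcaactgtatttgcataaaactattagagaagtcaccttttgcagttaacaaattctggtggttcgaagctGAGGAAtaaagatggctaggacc
Il1rl1 proximal, chr1:40439379-40439678, plus strand: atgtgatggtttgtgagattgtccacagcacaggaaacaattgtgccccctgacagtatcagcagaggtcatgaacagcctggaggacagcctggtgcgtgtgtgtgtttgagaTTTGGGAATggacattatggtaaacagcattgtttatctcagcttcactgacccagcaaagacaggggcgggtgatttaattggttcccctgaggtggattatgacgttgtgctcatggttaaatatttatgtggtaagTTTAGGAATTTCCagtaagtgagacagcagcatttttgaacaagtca
Il1b, chr2:129371090-129371389, minus strand: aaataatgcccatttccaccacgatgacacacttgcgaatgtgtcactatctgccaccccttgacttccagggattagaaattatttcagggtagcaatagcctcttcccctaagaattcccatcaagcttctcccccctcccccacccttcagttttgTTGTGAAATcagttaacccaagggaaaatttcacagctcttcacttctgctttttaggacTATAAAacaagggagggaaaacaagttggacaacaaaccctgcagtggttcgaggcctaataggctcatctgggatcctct
The distal Il1rl1 window held 2 matches to GATAAG, found in 7.44% of 32851 windows, and 1 to GAGGAA, found in 28.3%. The proximal window held 2 matches to TTNNGNAAT, found in 11.5% of windows, and 1 to GGANTTTCC, found in 1.254%, which overlaps the second of these. The Il1b window held 1 match each to TATAAA, found in 13.6% of windows, and TTNNGNAAT. TGANTCA, found in 7.81% of windows, was not among the letters of the 3 printed windows. These libraries count the 3′ ends of transcripts per gene, so the counts cannot tell the Il1rl1 starts apart, nor its soluble from its membrane-bound product.

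The files held 34038 cell barcodes, of which 25479 passed the study's limits on unique molecular identifiers (UMIs, each marking 1 captured mRNA molecule), genes and mitochondrial share. From 4110 to 8223 cells per library were kept, with 83405494 to 156567619 UMIs in all and a median of 16094 to 17632 UMIs per cell. Between 5 and 15 kept barcodes were shared by any pair of libraries. The cells formed 32 clusters in 8 lineages, and names ending in "-like" come from fixed marker genes. Another gene of the cluster is given in brackets where clusters share a name, 6 clusters carry 2 names because their markers scored alike, and 2 clusters with 238 cells stayed unnamed. The members were left out of the genes used for clustering. Levels below are in CPM, the summed UMIs of a gene per 1000000 summed UMIs of the same cells, and 27 clusters with at least 20 cells in every library were ranked. The lineages took very different shares of the 4 libraries: myeloid cells made up 61.4% of control_4d, 58.7% of RA_4d, 35.2% of control_7d and 19.5% of RA_7d, and mesenchymal cells 17.8%, 19.7%, 41.3% and 49.2% in that order. Because each condition had 1 library, no test between conditions was possible, and the 95% intervals given here (exact Poisson for levels, exact conditional for ratios) cover counting error only, not the spread between animals.

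The ligand gene Il1b and the signalling receptor gene Il1r1 were highest in different cells. Other pairs were not apart, since Il1b shared its leading cell type with Il1r2, and Il33 its leading lineage with Il1rl1. Among ranked cell types, Il1b, Il1rn and Il18 were highest in myeloid cells and Il33 and Il1rl1 in mesenchymal cells. In the same ranking, Il1r1 was highest in venular endothelial cells, pericytes and fibroblasts, Il1r2 in a dendritic cluster and Il1rap in Schwann cells. The heat map of levels by cell type shows this division.

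**Figure D1:**
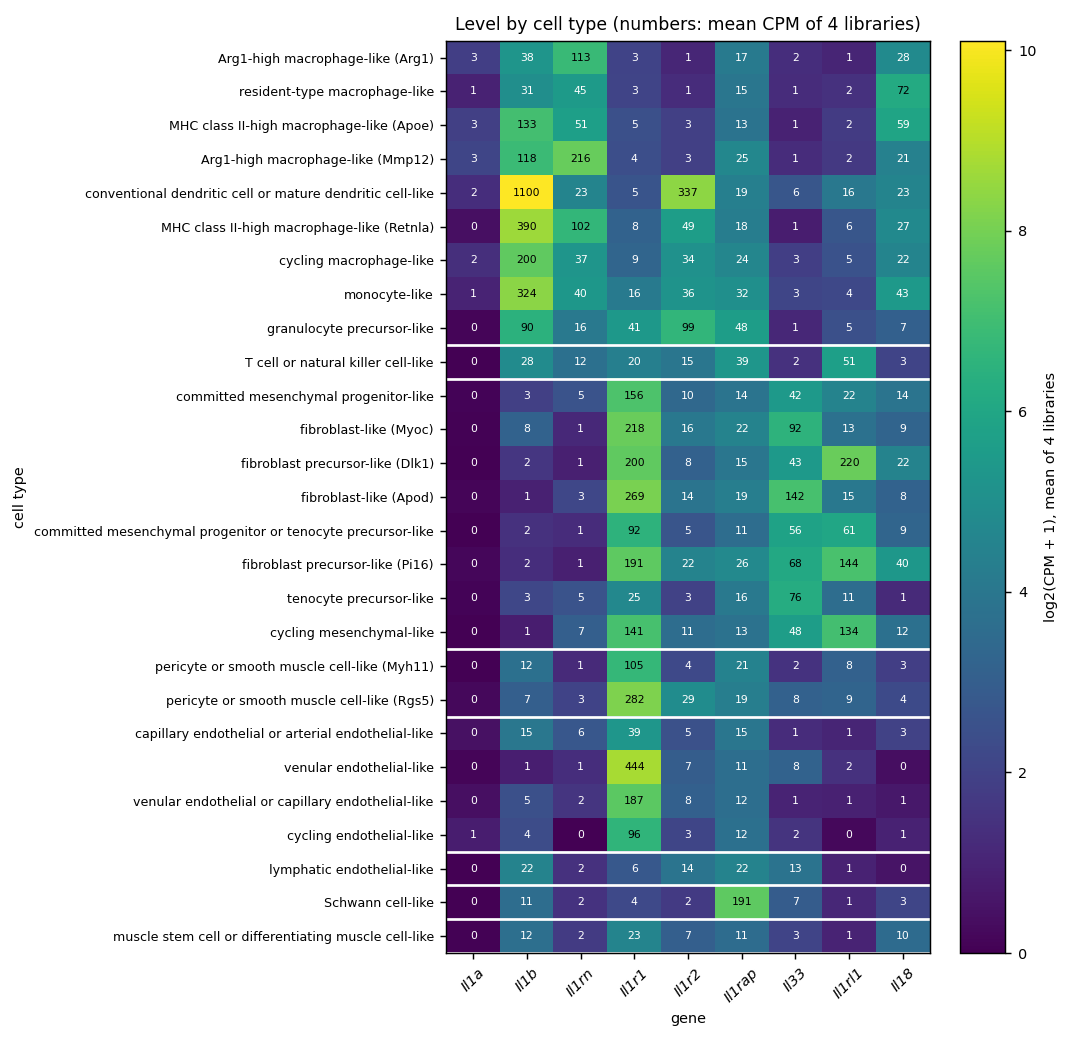
Level of each gene (columns) in the 27 cell types with at least 20 cells in every library (rows, grouped by lineage with white lines). Colour is log2(CPM + 1) of the mean over 4 libraries and the printed numbers are that mean in CPM. The highest squares are Il1b in the dendritic cell-like cluster at 1100.4 CPM and Il1r1 in venular endothelial-like cells at 444 CPM.

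Il1b, the secreted and inflammasome-dependent ligand, was concentrated in 1 small cluster named conventional dendritic cell or mature dendritic cell-like, led by Ccr7, Cd209a and MHC class II genes and called dendritic cell-like below. There Il1b was at 1095 CPM in control_4d, 1039 CPM in RA_4d, 1084 CPM in control_7d and 1184 CPM in RA_7d. The 4 libraries lay within a narrow band, and every one was above the highest value of any other ranked cell type. With 943 cells, the cluster gave 46.0% of all Il1b UMIs but 2.46% of the UMIs of all genes. MHC class II-high macrophage-like (Retnla) cells came next with 449 and 379 CPM in control callus at 4 and 7 dpf and 344 and 389 CPM in RA callus. Monocyte-like cells were at 384 CPM (control) and 353 CPM (RA) at 4 dpf and 287 CPM (control) and 273 CPM (RA) at 7 dpf. The ranges of these neighbours overlapped, so that their order does not hold beyond the spread between libraries. Resident-type macrophage-like cells, by contrast, held 15.2, 46.7, 30.8 and 30.9 CPM in the order control_4d, control_7d, RA_4d and RA_7d, and mesenchymal cells 2.29, 3.76, 3.94 and 1.48 CPM. After each cell was thinned to 4000 UMIs, 73.5% of dendritic cell-like cells had an Il1b UMI against 0.589% of mesenchymal cells, and without thinning the shares were 82.1% at a median of 12147 UMIs and 1.95% at a median of 25437.

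Among ranked cell types, Il1rn, the antagonist, was highest in macrophages that express Arg1, and not in the dendritic cell-like cluster. Arg1-high macrophage-like (Mmp12) cells held 212 CPM in control_4d, 133 CPM in RA_4d, 202 CPM in control_7d and 319 CPM in RA_7d. In Arg1-high macrophage-like (Arg1) cells the values were 89.0 and 70.7 CPM in control callus at 4 and 7 dpf and 121 and 172 CPM in RA callus. The Mmp12 cluster was above the Arg1 cluster in all 4 libraries, although their ranges overlapped. Antagonist and ligand UMIs were set against each other without scaling for length, since the kit counts transcripts from their 3′ ends. Whether both genes were captured equally well was not tested. Over all libraries there were 0.0184 Il1rn UMIs per Il1b UMI in the dendritic cell-like cluster. The same quotient was 0.109 in monocyte-like cells, 0.256 in the Retnla cluster, 1.83 in the Mmp12 cluster and 3.00 in the Arg1 cluster. Ligand UMIs outnumbered antagonist UMIs in some myeloid cell types and the reverse held in others. Over the whole myeloid lineage the quotient hardly moved between libraries. It was 0.412 and 0.398 in the control libraries of 4 and 7 dpf and 0.397 and 0.424 in the RA libraries. Within single cell types it moved more. In the order control_4d, control_7d, RA_4d and RA_7d, it was 4.12, 1.51, 4.08 and 3.19 in the Arg1 cluster. Resident-type macrophage-like cells had 2.68, 0.619, 2.51 and 1.06 in that order, on both sides of 1. The Mmp12 cluster moved less, from 1.42 in control_7d to 2.04 in RA_7d. The flat lineage value thus does not show a stable balance within cell types.

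Il1a, the membrane-associated ligand, was rare. Only 272 Il1a UMIs were counted in the kept cells, 87.1% of them in myeloid cells, where the level was 1.54 CPM (control) and 0.656 CPM (RA) at 4 dpf and 2.07 CPM (control) and 2.69 CPM (RA) at 7 dpf. Il18, which is also inflammasome-dependent, had its highest mean level in resident-type macrophage-like cells, at 85.0 CPM in control_4d, 74.7 CPM in RA_4d, 54.7 CPM in control_7d and 73.3 CPM in RA_7d. MHC class II-high macrophage-like (Apoe) cells followed at 80.1 and 55.0 CPM in control callus at 4 and 7 dpf and 61.1 and 39.1 CPM in RA callus, and these neighbours overlapped, with the first higher in 3 of 4 libraries. Its pattern was broader than that of Il1b: fibroblast precursor-like (Pi16) cells, of the mesenchymal lineage, held 58.1 CPM (control) and 27.5 CPM (RA) at 4 dpf and 24.7 CPM (control) and 48.9 CPM (RA) at 7 dpf.

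Il33, the alarmin, was a mesenchymal gene here, with 93.8% of its UMIs in that lineage, which held 47.8% of the UMIs of all genes. Fibroblast-like (Apod) cells were at 158 CPM in control_4d, 198 CPM in RA_4d, 60.2 CPM in control_7d and 154 CPM in RA_7d. The control_7d value stood well below the others. Fibroblast-like (Myoc) cells were at 119 and 67.0 CPM in control callus at 4 and 7 dpf and 102 and 82.0 CPM in RA callus and tenocyte precursor-like cells at 121 CPM (control) and 62.3 CPM (RA) at 4 dpf and 67.7 CPM (control) and 54.8 CPM (RA) at 7 dpf, and the 3 ranges overlapped. In the mesenchymal lineage 16.3% of cells thinned to 4000 UMIs had an Il33 UMI (unthinned 40.6%, median 25437 UMIs) against 0.685% of myeloid cells (unthinned 1.94%, median 12995 UMIs).

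Il1r1, the signalling receptor for both interleukin-1 ligands, was highest in venular endothelial-like cells, the vessel segment known for leukocyte entry. These held 434 CPM in control_4d, 523 CPM in RA_4d, 395 CPM in control_7d and 422 CPM in RA_7d. Every library of this cell type was above the highest library of the next, the Rgs5 cluster of pericyte or smooth muscle cell-like cells, which held 285 and 231 CPM in control callus at 4 and 7 dpf and 328 and 284 CPM in RA callus. Fibroblast-like (Apod) cells held 285 CPM (control) and 364 CPM (RA) at 4 dpf and 155 CPM (control) and 271 CPM (RA) at 7 dpf, overlapping the pericytes. Endothelium was not uniform, since capillary or arterial endothelial-like cells held 39.5, 27.0, 40.7 and 46.9 CPM in the order control_4d, control_7d, RA_4d and RA_7d. By their number, mesenchymal cells gave 70.7% of Il1r1 UMIs, endothelial cells 20.02% and mural cells 5.09%. Myeloid cells, which supplied most Il1b, were at 3.11 CPM in control_4d, 5.23 CPM in RA_4d, 4.74 CPM in control_7d and 12.2 CPM in RA_7d.

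Among ranked cell types, Il1rap, the subunit that the Il1r1 and Il1rl1 receptors share, was low nearly everywhere except in Schwann cell-like cells. There it was at 141 and 190.1 CPM in control callus at 4 and 7 dpf and 180.5 and 253 CPM in RA callus, and the lowest of these values was above the highest of any other ranked cell type. The next cell type, granulocyte precursor-like cells, held 47.3 CPM (control) and 40.3 CPM (RA) at 4 dpf and 45.7 CPM (control) and 58.0 CPM (RA) at 7 dpf. Schwann cells gave 10.1% of Il1rap UMIs from 0.857% of the UMIs of all genes, but they held almost no Il1r1, with at most 6.82 CPM in any library. Only 30 and 20 Schwann cells were kept in control_4d and RA_4d.

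Il1r2, the decoy receptor, had the same leading cell type as Il1b among those ranked. In dendritic cell-like cells it was at 459.8 CPM in control_4d, 353 CPM in RA_4d, 364 CPM in control_7d and 173 CPM in RA_7d, highest in control_4d and lowest in RA_7d, and above every other ranked cell type in each library. Granulocyte precursor-like cells followed with 109.6 and 111 CPM in control callus at 4 and 7 dpf and 75.4 and 101 CPM in RA callus. Ligand and decoy were often found in the same cells. At 4000 UMIs per cell, 58.9% of dendritic cell-like cells with an Il1b UMI had an Il1r2 UMI in control_4d, against 38.6% of those without. The corresponding pairs were 51.4% and 28.9% in control_7d, 53.2% and 25.3% in RA_4d, and 37.7% and 21.4% in RA_7d. The share was higher beside Il1b in all 4 libraries, as a description of cells within 1 cluster that joins 2 names.

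Il1rl1, which encodes ST2, was highest among ranked cell types in fibroblast precursor-like (Dlk1) cells at 235 CPM (control) and 98.2 CPM (RA) at 4 dpf and 233 CPM (control) and 314 CPM (RA) at 7 dpf. RA_4d was the low library and RA_7d the high one. The name of this cluster is weakly held, with 1 fibroblast precursor marker among its top genes. With eased limits on cells, a cluster of 1284 cells that also had Dlk1, Col5a3 and Il1rl1 among its leading genes stayed unnamed. Fibroblast precursor-like (Pi16) cells held 126 CPM in control_4d, 83.4 CPM in RA_4d, 213 CPM in control_7d and 156 CPM in RA_7d, and cycling mesenchymal-like cells 142 and 121 CPM in control callus at 4 and 7 dpf and 70.3 and 203 CPM in RA callus. Their ranges overlapped with that of the Dlk1 cluster, which gave 51.0% of all Il1rl1 UMIs. Outside the mesenchyme, the T cell or natural killer cell-like cluster was the only ranked cell type with a mean over the libraries above 20 CPM. It was at 45.4 CPM (control) and 62.3 CPM (RA) at 4 dpf and 32.4 CPM (control) and 64.3 CPM (RA) at 7 dpf. The level came from a minority of its cells. In the order control_4d, control_7d, RA_4d and RA_7d, 7.61%, 6.54%, 6.75% and 13.7% had an Il1rl1 UMI. Single libraries of other cell types also passed 20 CPM, with 35.0 CPM in dendritic cell-like cells of RA_4d, where 9.52% of cells had an Il1rl1 UMI. In RA_7d the Myh11 and Rgs5 clusters of pericyte or smooth muscle cell-like cells held 29.2 and 22.0 CPM, from 1.88% and 7.28% of their cells. The Myh11 value rested on 80 UMIs. Over all libraries, 8.64% of cells in the Rgs5 cluster were called doublets and left in, against 2.32% of all kept cells. Il33 and Il1rl1 thus shared a lineage but not a leading cell type: the Apod cluster, first for Il33, held 12.8, 21.0, 7.62 and 20.6 CPM of Il1rl1 in the order control_4d, control_7d, RA_4d and RA_7d. Among mesenchymal cells at 4000 UMIs, 11.7% of those with an Il33 UMI also had an Il1rl1 UMI in control_4d, against 11.7% of those without. These shares were 11.9% and 11.9% in control_7d, 10% and 9.38% in RA_4d, and 9.61% and 15.5% in RA_7d.

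**Figure D2:**
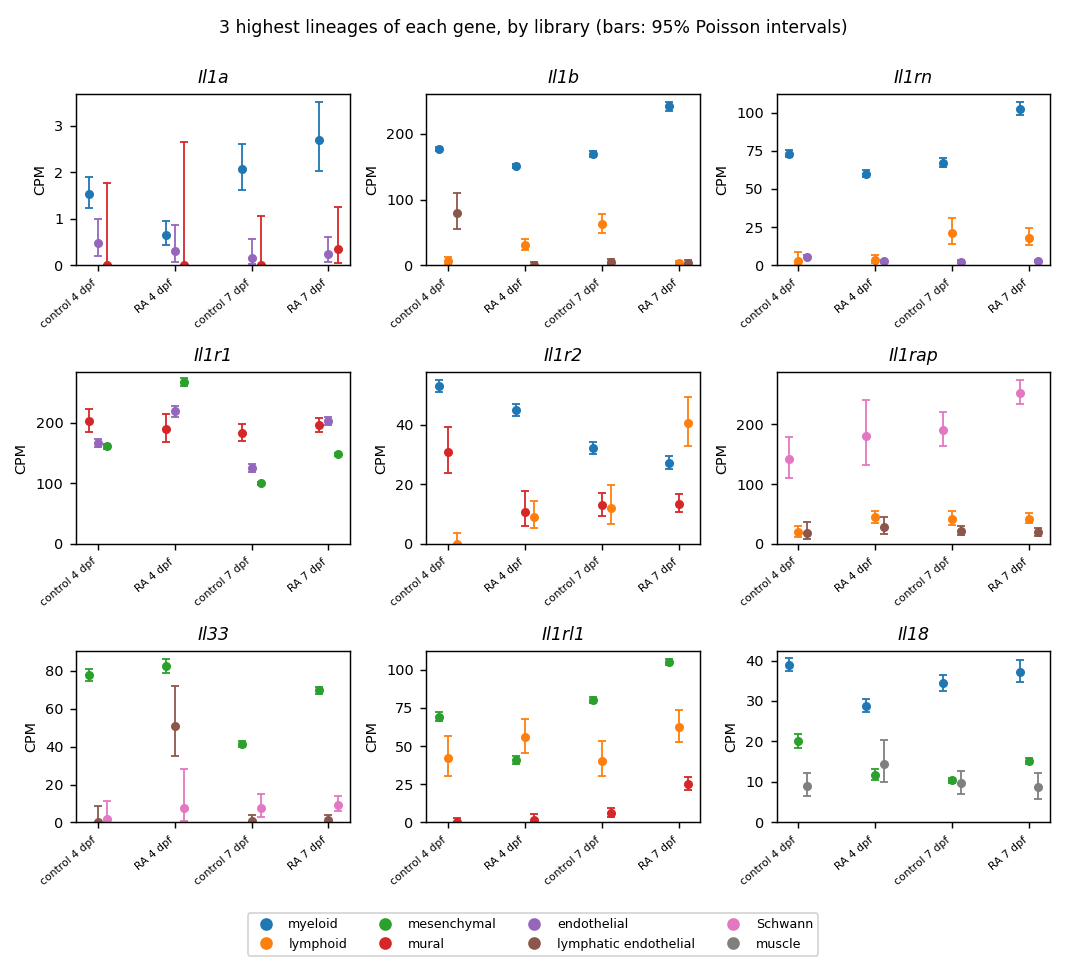
CPM of each gene (y axis, own scale for each panel) in its 3 highest lineages in the 4 libraries (x axis). Points are the level and bars the exact 95% Poisson interval. Myeloid Il1b and Il1rn points are lowest in RA_4d and highest in RA_7d, and mesenchymal Il33 is lowest in control_7d.

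Serum arthritis was then compared with control at each time in the lineage where each gene had its highest mean level. At 4 dpf, the interval of the RA to control ratio lay above 1 for 0 of the 9 genes and below 1 for 6, namely Il1a, Il1b, Il1rn, Il1r2, Il18 and Il1rl1. At 7 dpf it lay above 1 for 5, namely Il1b, Il1rn, Il1rap, Il33 and Il1rl1, and below 1 for Il1r2. These counts depend on the lineage scored. Il1r1 was scored in mural cells, whose range over libraries overlapped those of endothelial and mesenchymal cells, and Il1rap in Schwann cells. In mesenchymal cells both had 4 dpf ratios with intervals above 1, at 1.66 and 1.53. Endothelial cells had 4 dpf ratios of 1.32 for Il1r1 and 0.909 for Il1rap. Such intervals are narrow in large libraries, and many genes meet the rule. Of all genes tested in myeloid cells, 27.9% were higher and 22.8% lower in RA at 4 dpf, and 23.2% and 22.1% at 7 dpf. In mesenchymal cells the shares were 26.9% higher and 19% lower at 4 dpf, and 27.2% and 35.2% at 7 dpf. In mural cells they were 11.8% and 11.4%, then 16% and 12.9%, and in Schwann cells 13.8% and 11.2%, then 12.3% and 11.3%.

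Summed over all myeloid cells, Il1b and Il1rn were both lower in RA at 4 dpf and higher at 7 dpf, by the counting intervals. The cell types within the lineage did not all share these directions. Myeloid Il1b was at 177 CPM in control_4d, 151 CPM in RA_4d, 169 CPM in control_7d and 242 CPM in RA_7d. The RA to control ratio was 0.853 (95% interval 0.827 to 0.881) at 4 dpf and 1.43 (95% interval 1.38 to 1.49) at 7 dpf. Within the dendritic cell-like cluster, its main source, the ratios were closer to 1, at 0.949 (95% interval 0.909 to 0.991) and 1.09 (95% interval 1.03 to 1.16). MHC class II-high macrophage-like (Apoe) cells had ratios of 0.629 (95% interval 0.548 to 0.719) and 0.920 (95% interval 0.818 to 1.03). Resident-type macrophage-like cells ran against the lineage at both times. They were at 15.2 CPM (control) and 30.8 CPM (RA) at 4 dpf and 46.7 CPM (control) and 30.9 CPM (RA) at 7 dpf. Cycling macrophage-like cells stood out at 7 dpf with 104 CPM in control_7d and 516 CPM in RA_7d, but the latter came from 24 cells. The lineage sum also depends on which myeloid cells were present. Had only the cell type shares differed and each cell type kept its control level, the 7 dpf ratio in myeloid cells would have been 1.32, and with shares fixed and levels as measured 1.17.

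Myeloid Il1rn was at 72.9 and 67.3 CPM in control callus at 4 and 7 dpf and 59.9 and 102 CPM in RA callus, with ratios of 0.822 (95% interval 0.782 to 0.864) at 4 dpf and 1.52 (95% interval 1.43 to 1.62) at 7 dpf. Unlike for Il1b, the mix of cell types alone gave 1.02 at 7 dpf, and the levels alone gave 1.61. At 4 dpf the mix alone gave 0.811 and the levels alone 1.03, the latter a net over cell types whose levels differed in direction. For Il1b the 4 dpf values were 1.01 from the mix and 0.883 from the levels. The Arg1 cluster had ratios of 1.36 (95% interval 1.24 to 1.48) and 2.43 (95% interval 2.17 to 2.72). In the Mmp12 cluster they were 0.629 (95% interval 0.563 to 0.702) and 1.58 (95% interval 1.43 to 1.75), so that the 2 Arg1-high clusters differed in direction at 4 dpf and shared it at 7 dpf. Resident-type macrophage-like cells had ratios of 1.90 (95% interval 1.66 to 2.17) at 4 dpf and 1.13 (95% interval 0.896 to 1.43) at 7 dpf.

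The other myeloid members were lower in RA at 4 dpf and divided at 7 dpf. For Il1r2 the myeloid levels were 52.9 CPM (control) and 44.9 CPM (RA) at 4 dpf and 32.2 CPM (control) and 27.3 CPM (RA) at 7 dpf, with ratios of 0.848 (95% interval 0.800 to 0.899) and 0.847 (95% interval 0.763 to 0.939). In its leading dendritic cell-like cluster the ratios were 0.767 (95% interval 0.714 to 0.824) and 0.475 (95% interval 0.416 to 0.541), while Il1b in the same cells had ratios near 1. Il18 was at 39.0 CPM in control_4d, 28.8 CPM in RA_4d, 34.5 CPM in control_7d and 37.3 CPM in RA_7d in myeloid cells, with ratios of 0.740 (95% interval 0.689 to 0.794) and 1.08 (95% interval 0.985 to 1.19). At 7 dpf its leading cell types parted, with 1.34 (95% interval 1.14 to 1.58) in resident-type macrophage-like cells and 0.711 (95% interval 0.571 to 0.882) in the Apoe cluster. Myeloid Il1a rested on 84 and 28 UMIs in control and RA at 4 dpf, a ratio of 0.427 (95% interval 0.268 to 0.662), and on 71 and 54 UMIs at 7 dpf, a ratio of 1.30 (95% interval 0.897 to 1.88).

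**Figure D3:**
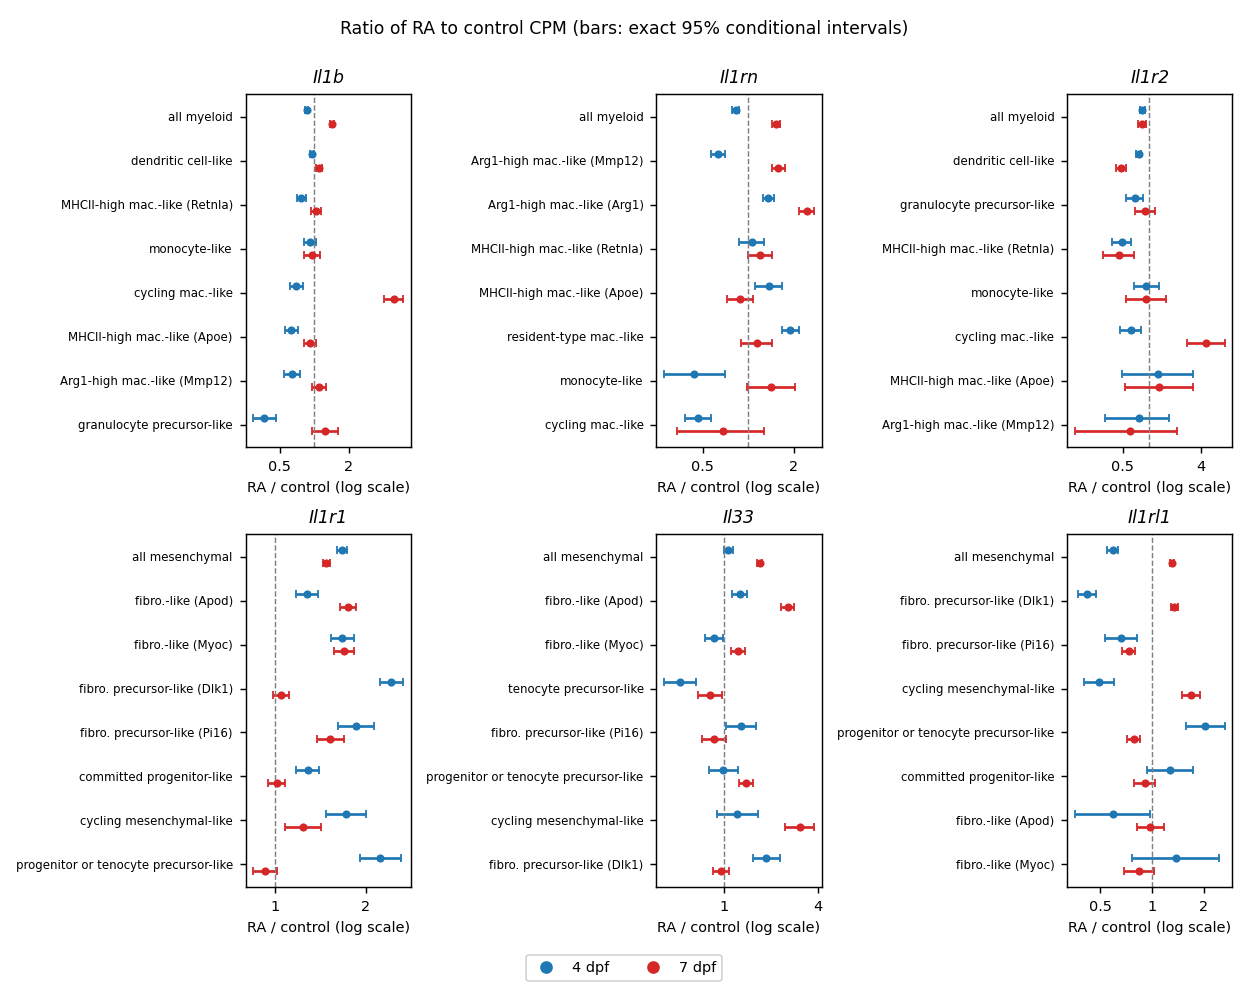
Ratio of RA to control CPM (x axis, log scale) for 6 genes in 1 lineage and up to 7 of its cell types (y axis). Points are 4 dpf (blue) and 7 dpf (red), with exact 95% conditional intervals and a dashed line at 1. The lineage is myeloid for Il1b, Il1rn and Il1r2 and mesenchymal for Il1r1, Il33 and Il1rl1. It is the leading lineage of each gene except Il1r1, which was led by mural cells. Il1r2 in dendritic cell-like cells is left of the line at both times, and Il1r1 in fibroblast-like cells is right of it at both times.

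Il1r1, the receptor, was higher in RA in stromal and endothelial cells as a whole at both times, but not in the mural lineage that led by mean level. Mural Il1r1 was at 202 and 183 CPM in control callus at 4 and 7 dpf and 190.0 and 196 CPM in RA callus, with ratios of 0.938 (95% interval 0.802 to 1.10) and 1.07 (95% interval 0.968 to 1.18). Mesenchymal Il1r1 was at 161 CPM (control) and 267 CPM (RA) at 4 dpf and 99.9 CPM (control) and 148 CPM (RA) at 7 dpf, with ratios of 1.66 (95% interval 1.60 to 1.73) and 1.48 (95% interval 1.44 to 1.52). Both RA libraries were above the control library of the same time, and 4 dpf was above 7 dpf in both groups. Fibroblast-like (Apod) and fibroblast-like (Myoc) cells had ratios from 1.27 to 1.74, whereas the Dlk1 fibroblast precursor-like cells had 2.43 (95% interval 2.22 to 2.66) at 4 dpf and 1.05 (95% interval 0.985 to 1.12) at 7 dpf. Endothelial Il1r1 was at 166 CPM in control_4d, 218 CPM in RA_4d, 125 CPM in control_7d and 202 CPM in RA_7d, with ratios of 1.32 (95% interval 1.24 to 1.40) and 1.62 (95% interval 1.52 to 1.72). Venular endothelial-like cells alone had 1.20 (95% interval 1.12 to 1.29) and 1.07 (95% interval 0.993 to 1.15), and they made up 217 of the control_7d cells and 399 of the RA_7d cells. Within the endothelial lineage at 7 dpf, the mix of cell types alone gave 1.26 and the levels alone 1.33.

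Il33 in mesenchymal cells was at 77.8 and 41.4 CPM in control callus at 4 and 7 dpf and 82.6 and 69.7 CPM in RA callus, and its ratio was 1.06 (95% interval 0.999 to 1.13) at 4 dpf, which includes 1 before rounding, and 1.68 (95% interval 1.61 to 1.75) at 7 dpf. With eased limits on cells the mesenchymal ratios were 0.917 (0.876 to 0.959) and 1.83 (1.77 to 1.90), the first of them below 1. Among mesenchymal cell types the 7 dpf ratio was highest in cycling mesenchymal-like cells, at 3.05 (95% interval 2.46 to 3.78), and fibroblast-like (Apod) cells, at 2.55 (95% interval 2.33 to 2.80). Tenocyte precursor-like cells went the other way with 0.516 (95% interval 0.407 to 0.651) at 4 dpf and 0.810 (95% interval 0.677 to 0.969) at 7 dpf. Venular endothelial-like cells held 19 Il33 UMIs in control_4d (5.34 CPM), 20 in RA_4d (7.35 CPM), 3 in control_7d (1.05 CPM) and 94 in RA_7d (18.4 CPM). RA_7d was the highest and control_7d the lowest, which gave a 7 dpf ratio of 17.5 (95% interval 5.79 to 86.2) on 3 control UMIs.

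In kept mesenchymal cells, summed over cell types, Il1rl1 was lower in RA at 4 dpf and higher at 7 dpf, but with cell types weighted equally the 7 dpf log2 ratio was -0.40 in place of 0.38. It was at 69.0 CPM (control) and 40.8 CPM (RA) at 4 dpf and 80.4 CPM (control) and 105 CPM (RA) at 7 dpf, with ratios of 0.592 (95% interval 0.548 to 0.639) at 4 dpf and 1.30 (95% interval 1.26 to 1.35) at 7 dpf. The leading Dlk1 cluster had 0.418 (95% interval 0.371 to 0.471) and 1.35 (95% interval 1.29 to 1.41), and the Pi16 cluster 0.662 (95% interval 0.532 to 0.819) and 0.733 (95% interval 0.672 to 0.800). At 7 dpf the joint progenitor or tenocyte precursor-like cluster had 0.784 (95% interval 0.718 to 0.855) and tenocyte precursor-like cells 0.170 (95% interval 0.0980 to 0.280). With the upper limits on UMIs and genes lifted and the lower ones eased, the mesenchymal ratio was 0.985 (0.951 to 1.02) at 4 dpf and 1.14 (1.11 to 1.17) at 7 dpf, and the 4 dpf interval included 1. T cell or natural killer cell-like cells had ratios of 1.37 (95% interval 0.953 to 2.00) and 1.99 (95% interval 1.38 to 2.94). Il1rap in Schwann cells had ratios of 1.28 (95% interval 0.863 to 1.88) and 1.33 (95% interval 1.13 to 1.58), and in mesenchymal cells, at 15.04 CPM in control_4d, 23.0 CPM in RA_4d, 11.3 CPM in control_7d and 17.2 CPM in RA_7d, of 1.53 (95% interval 1.35 to 1.74) and 1.51 (95% interval 1.40 to 1.64).

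Over all kept cells together, Il1b and Il1rn at 7 dpf were lower in RA, the reverse of their direction in myeloid cells. Il1b was at 92.2 and 45.4 CPM in control callus at 4 and 7 dpf and 80.4 and 35.2 CPM in RA callus, with ratios of 0.872 (95% interval 0.845 to 0.899) and 0.775 (95% interval 0.748 to 0.804), lower in RA at 7 dpf although its level in myeloid cells was higher. Differences in cell type shares alone gave 0.749 at 7 dpf and differences in levels alone 1.15. For Il1rn the 7 dpf ratio was 0.847 (95% interval 0.800 to 0.895), with 0.596 from shares and 1.55 from levels. Il1r1, at 74.0 CPM (control) and 110.1 CPM (RA) at 4 dpf and 75.7 CPM (control) and 129 CPM (RA) at 7 dpf, had ratios of 1.49 (95% interval 1.44 to 1.53) and 1.71 (95% interval 1.67 to 1.75), and Il33 had 1.09 (95% interval 1.03 to 1.15) and 1.92 (95% interval 1.85 to 2.00). The 4 dpf direction of Il33 turned with the cell limits, from a log2 ratio of 0.12 in kept cells to -0.19 with eased limits and -0.18 over all deposited barcodes. At 7 dpf, shares alone gave 1.29 for Il1r1 and levels alone 1.29, and for Il33 the values were 1.26 and 1.62. Whether a lower total reflects fewer cells of a type in the callus or fewer of them recovered by dissociation cannot be told apart. The myeloid share of a gene's UMIs also differed between libraries: myeloid cells held 82.4%, 61.3%, 80.5% and 31.3% of Il1r2 UMIs in the order control_4d, control_7d, RA_4d and RA_7d. For Il18 the myeloid shares were 75.3%, 55.4%, 78.5% and 31.2%. Myeloid cells themselves were 61.4%, 35.2%, 58.7% and 19.5% of kept cells in that order. They held 54651488 of the 108438906 UMIs of all genes in control_4d and 20072406 of 156567619 in RA_7d. The lower shares thus went with fewer myeloid cells and do not show a change of source.

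**Figure D4:**
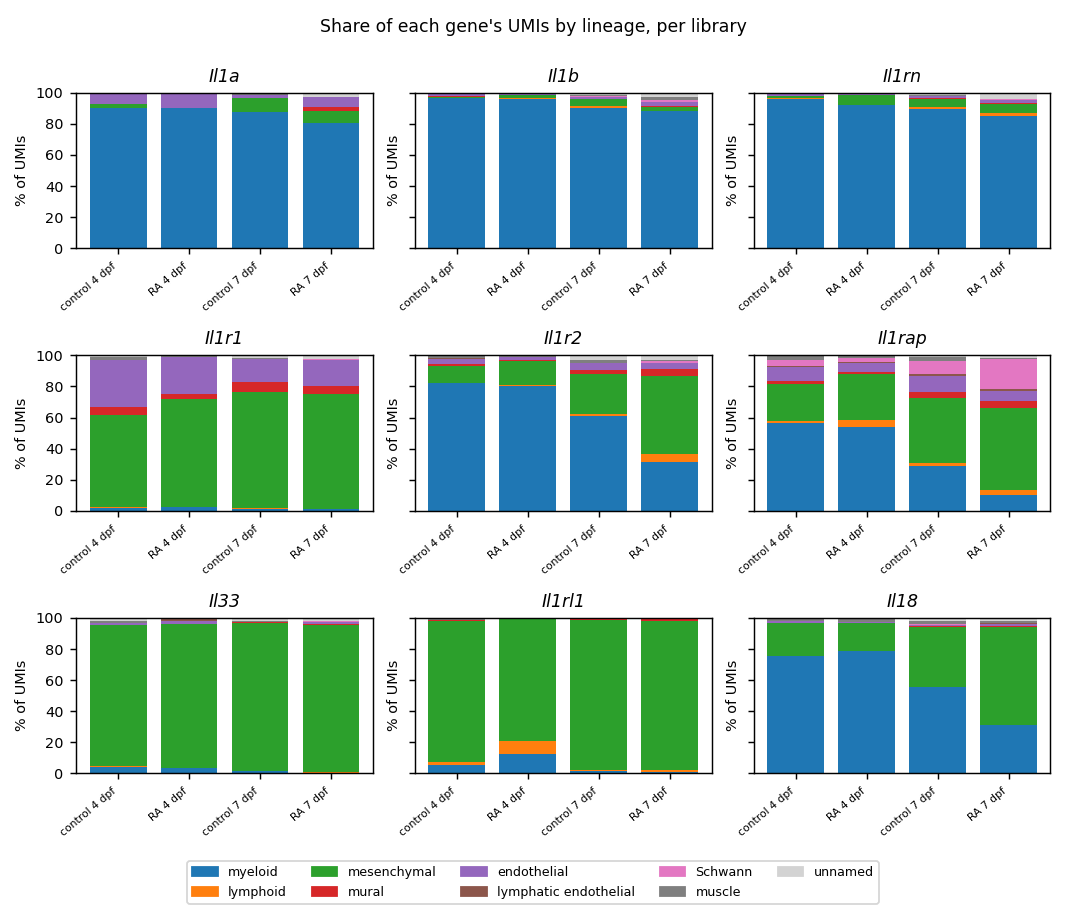
Share of each gene's UMIs in kept cells (y axis, %) by lineage (colours) in the 4 libraries (x axis). Il1b, Il1rn and Il1a stay mostly myeloid in every library and Il33 and Il1rl1 mostly mesenchymal, while Il1r2 and Il18 are mostly myeloid except in RA_7d.

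The limits on cells bore unequally on the 9 genes. Barcodes above the upper limits held 69.9% and 33.6% of Il1rl1 UMIs in the control libraries of 4 and 7 dpf, and 76.6% and 17.4% in the RA libraries. For the UMIs of all genes the shares were 33.2%, 15.9%, 33.0% and 11.3%. Barcodes under the lower limits held 10.1%, 11.1%, 6.01% and 3.90% of Il1b UMIs in the same order, against 1.75% of the UMIs of all genes over the libraries. With eased limits, cell types appeared that the study's limits had mostly or wholly removed. Neutrophil-like cells, the short-lived granulocytes with little RNA, numbered 436, of which 131 were inside the limits. Their Il1b level was 1958 and 566 CPM in control callus at 4 and 7 dpf and 237 and 495 CPM in RA callus, with the control_4d library far above the rest and alone above the dendritic cell-like cluster of kept cells. Their Il1r2 level was 683, 414, 264 and 430.0 CPM in that order, above the dendritic cell-like cluster of kept cells in all libraries but RA_4d. Il1rap was at 305, 101, 62.4 and 122 CPM in the same order, above Schwann cell-like cells only in control_4d. Il1rn was at 310, 108, 64.2 and 283 CPM, and 1 cell held 38 of the 79 UMIs of RA_7d. Mast cell or basophil-like cells, whose ST2 receptor is well known, numbered 8 and 6 in the control libraries of 4 and 7 dpf and 59 and 18 in the RA libraries, and held Il1rl1 at 189.9, 638, 393 and 292 CPM in that order. The leading genes of this cluster included Il4, Mcpt8 and Prss34. Cma1, Mcpt4 and Cpa3 were instead among the leading genes of an unnamed cluster of 713 cells, with 52.5% called doublets among its cells inside the limits. Whether the named cluster held mast cells, basophils or both was not tested, nor was its use of the distal Il1rl1 window printed above.

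**Figure D5:**
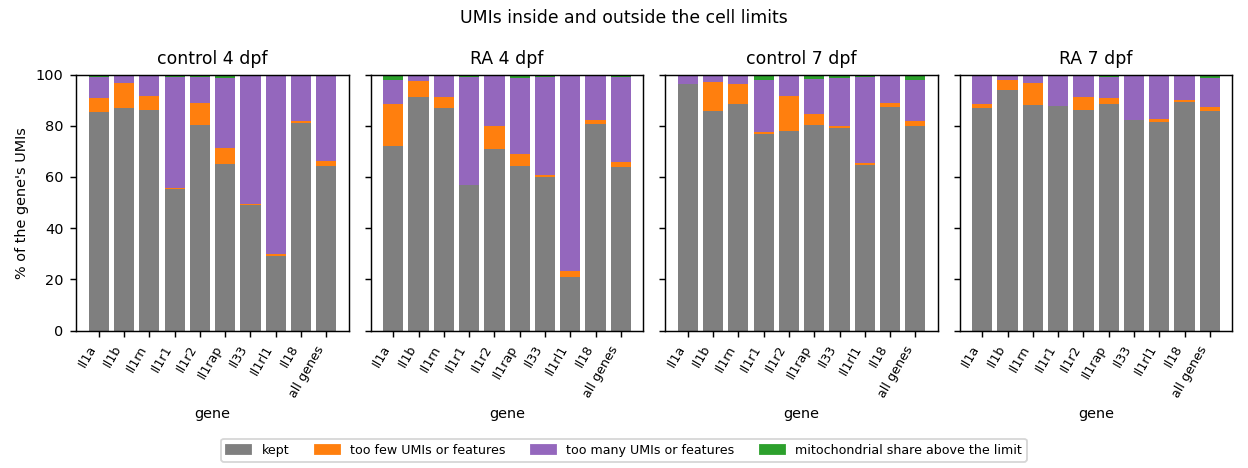
Share of each gene's UMIs (y axis, %) in kept barcodes and in barcodes outside the limits, by reason (colours), for the 9 genes and all genes together (x axis) in the 4 libraries (panels). The Il1rl1 bar has the smallest kept part in control_4d and RA_4d, at 29.3% and 21.0%.

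Other genes of the pathway were counted in 4 lists at a 1.5-fold ratio among genes with at least 50 UMIs. Among all genes of mesenchymal cells, 8.09% were that much higher and 3.77% lower in RA at 4 dpf, and 8.72% and 9.06% at 7 dpf. In myeloid cells the shares were 7.14% and 4.98%, then 7.38% and 4.4%. Of the genes that interleukin-1 is known to induce, 8 of 22 were higher and 2 lower in mesenchymal cells at 7 dpf, with a median log2 ratio of 0.28 against -0.03 over all genes, and at 4 dpf 3 of 20 were higher and 3 lower. In myeloid cells 8 of 19 were higher and 2 lower at 7 dpf, with a median of 0.46 against 0.00, and 5 of 18 higher and 2 lower at 4 dpf. Many of these genes answer to other cytokines too. Mesenchymal Mmp3, a matrix-degrading enzyme, went from 68.7 to 378 CPM, a ratio of 5.50 (5.35 to 5.66) at 7 dpf. Saa3, an acute-phase gene, went from 34.7 to 139.6 CPM, a ratio of 4.02 (3.86 to 4.19) at 7 dpf and from 143 to 381 CPM, a ratio of 2.65 (2.56 to 2.75) at 4 dpf. Steap4, a metalloreductase, went from 39.4 to 116 CPM, a ratio of 2.93 (2.82 to 3.05) at 7 dpf. In myeloid cells the chemokine genes Ccl7 and Ccl2 went from 114 to 375 CPM, a ratio of 3.29 (3.16 to 3.42) and from 161 to 369 CPM, a ratio of 2.29 (2.21 to 2.38), both at 7 dpf, whereas at 4 dpf their ratios were near 1, from 296 to 322 CPM, a ratio of 1.09 (1.06 to 1.11) and from 384 to 354 CPM, a ratio of 0.922 (0.903 to 0.942).

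The receptor-proximal signalling list was nearly flat. Of 17 genes measured, 1 was past 1.5-fold in mesenchymal cells at 7 dpf and 0 at 4 dpf, and 0 in myeloid cells at either time. The exception was Irak3, which encodes a brake on receptor signalling and went from 29.0 to 62.4 CPM, a ratio of 2.15 (2.05 to 2.26) in mesenchymal cells at 7 dpf but from 64.4 to 52.1 CPM, a ratio of 0.809 (0.752 to 0.869) at 4 dpf. Myeloid Nfkb1, a transcription factor subunit, went from 182 to 258 CPM, a ratio of 1.42 (1.37 to 1.47) at 7 dpf. Of the release and processing genes, 2 of 9, Casp1 and Casp4, were past 1.5-fold higher in mesenchymal cells at 7 dpf and 0 at 4 dpf, where 1 was lower, and 0 of 9 in myeloid cells at either time. The inflammasome sensor Nlrp3 in myeloid cells went from 48.9 to 39.8 CPM, a ratio of 0.813 (0.765 to 0.865) at 4 dpf and from 46.1 to 67.1 CPM, a ratio of 1.45 (1.35 to 1.56) at 7 dpf, the same directions as Il1b. Among other family members and receptors, 7 of 12 genes were measurable in mesenchymal cells at 7 dpf, with 1 higher and 2 lower, and at 4 dpf 2 of 4 were higher. In myeloid cells 2 of 5 were higher at 4 dpf and 1 was lower at 7 dpf. The gene higher in mesenchymal cells at 7 dpf was Il1rl2, the interleukin-36 receptor, which went from 21.5 to 48.9 CPM, a ratio of 2.28 (2.16 to 2.41).

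Genes with the most similar pattern were found by Pearson's r of log2(CPM + 1) over the 27 cell types, which share libraries and integration. For Il1b these were Napsa (r = 0.96), Plbd1 (r = 0.96) and Ero1lb (r = 0.95), and for Il1rn Ccl9 (r = 0.96), 9130230L23Rik (r = 0.95) and Dpep2 (r = 0.95). For Il1r1 they were Pcdh19 (r = 0.90), Meox2 (r = 0.89) and Snai2 (r = 0.89), and for Il33 Mfap2 (r = 0.95), Fndc1 (r = 0.95) and Mmp2 (r = 0.95). Il1rl1 was closest to Gm12840 (r = 0.89), Ptgs2 (r = 0.85) and Igf2bp3 (r = 0.83), and Il18 to Adora2b (r = 0.90), Emilin2 (r = 0.89) and Npc2 (r = 0.88). The likeness was weaker for Il1r2, with Ffar2 (r = 0.82), Siglecg (r = 0.80) and Haao (r = 0.79), and for Il1rap, with Car10 (r = 0.80), Epha6 (r = 0.79) and Gm10863 (r = 0.79). Il1a stayed under the 20 CPM required. Among the members themselves, Il1b and Il1rn had r = 0.76, Il33 and Il1rl1 r = 0.66 and Il1b and Il1r1 r = -0.75, all over the same cell types.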

How the data were processed

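The authors deposited unnormalized UMI counts of every gene in each barcode, 1 matrix per library, made with the Chromium 3′ kit (v3.1) and Cell Ranger 7.0.1 on mm10. Multi-mapped reads do not enter such counts, so genes with near-identical copies are undercounted. Cells with 4000 to 50000 UMIs, 2000 to 7000 genes and at most 8% mitochondrial UMIs were kept, as in the study's methods. Libraries were integrated in Seurat 5.3.0 (R 4.3.3; 2000 variable genes without the 9 members and 61 list genes, 15 components, resolution 1) and clusters named from markers. The naming thresholds and joint names were set after the clusters were seen, and the members and lists were chosen with earlier results of these data known. Doublets were called with scanpy 1.11.5 (592 of 25479 cells) and left in. UMIs were summed per cell type and library and intervals computed with scipy 1.17.1. Named genes were the members, the 3 genes of each list with the widest 7 dpf ratio in each main lineage and the 3 closest by correlation to each member. Ratio intervals were checked only on simulated Poisson counts, which is what they assume. Their coverage for UMIs clustered in single cells was not tested. No test between conditions was run, with 1 library in each. Alternatives were another filter, resolution, scaling, weighting, pseudocount, no integration and doublets left out.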

Additional observations from a re-analysis of the deposited data

Results flagged for a closer look

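Several members had opposite directions at 4 and 7 dpf. The log2 ratio of RA to control differed between 7 and 4 dpf by 0.75 for Il1b in myeloid cells (-0.23 at 4 dpf, 0.52 at 7 dpf), by 0.89 for Il1rn in myeloid cells (-0.28 and 0.61), by 1.14 for Il1rl1 in mesenchymal cells (-0.76 and 0.38) and by 1.06 for Il1rl1 over all cells (-0.48 and 0.58). With 1 library per condition these differences were not tested. For Il1rn in myeloid cells at 4 dpf, the mix of cell types alone gave a ratio of 0.811 and the levels alone 1.03. The Il1rl1 contrast in mesenchymal cells was not kept by every alternative: with eased limits the 4 dpf ratio was 0.985 (0.951 to 1.02), and with cell types weighted equally the 7 dpf log2 ratio was -0.40. Kept cells held 29.3% and 21.0% of the Il1rl1 UMIs of control_4d and RA_4d. Barcodes above the upper limits held Il1rl1 at 96.7 CPM in control_4d and 105 CPM in RA_4d, so the lower 4 dpf level over all cells holds for kept cells only. At 7 dpf over all cells, differences in cell type shares alone gave an Il1rl1 ratio of 1.35 and differences in levels alone 1.14.

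B cell-like cells, found only with eased limits on cells, held Il1b at 149.1 CPM in the RA libraries against 78.2 CPM in the control libraries, and Il1rl1 at 65.6 CPM against 6.86 CPM. The Il1rl1 value rested on 1 cell in each RA library, with 35 of 36 UMIs in RA_4d and 14 of 15 in RA_7d. By library, Il1b was at 108 CPM (control) and 81.5 CPM (RA) at 4 dpf and 16.9 CPM (control) and 360 CPM (RA) at 7 dpf. It was thus lower in RA at 4 dpf and higher at 7 dpf. Il1b was found in 2 of 99 and 2 of 51 of these cells in the control libraries of 4 and 7 dpf. In the RA libraries it was found in 2 of 106 and 3 of 29, and 1 cell held 46 of the 48 UMIs of RA_4d.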

How the results depend on the processing

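The 28 log2 ratios whose interval left out 1 were recomputed under the alternatives, which gave 176 values. Of these, 173 kept their direction and 3 turned. The 3 turns came with equal weighting of cell types, eased limits and all deposited barcodes. The pseudocount could not turn a direction, because the same amount is added to both levels, and TMM scaling hardly could. The count of kept directions is therefore no measure of robustness under those settings. A kept direction did not always mean a kept size, since mesenchymal Il1rl1 at 4 dpf came close to no difference with eased limits. Il1rl1 in mesenchymal cells at 7 dpf was -0.40 with cell types weighted equally, against 0.38 by summed UMIs. Il33 over all cells at 4 dpf was -0.19 with eased limits and -0.18 over all deposited barcodes, against 0.12. The number of members higher at 4 dpf was 1 in place of 0, namely Il33, without integration, at resolution 0.5 and with doublets left out, and the number lower at 7 dpf was 2 in place of 1 with cell types weighted equally, namely Il18 and Il1rl1 and not Il1r2. Equal weighting also lost Il1a at 4 dpf. With eased limits Il33 was lower and Il1rl1 no longer lower at 4 dpf, and Il18 was added at 7 dpf, giving 6 higher in place of 5. The cause was not tested. TMM scaling moved no lineage by more than 0.05 on the log2 scale. No paired analysis was possible because each condition had 1 library. Depth limits Il1a, with 272 UMIs, and the 20 to 30 Schwann cells at 4 dpf.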
